A study of Mus musculus with 2 samples.

Results

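The Mir181 family comprises 6 microRNA genes in the mouse, Mir181a-1, Mir181a-2, Mir181b-1, Mir181b-2, Mir181c and Mir181d. They lie in 3 bicistrons, which are pairs of neighbouring hairpins. Members were chosen by gene name, and they are 6 of the 2202 microRNA genes in the count tables. The libraries hold small RNAs with a size range below 30 nt, made from total RNA of left cerebral cortex. The tissue donors were 25-day-old females of B6CASTF1/J, an F1 hybrid between a laboratory mouse and a wild-derived one. The study has a single group of 2 libraries, labelled as biological replicates 1 and 2, so no condition was compared. The labels number the animals separately but give both libraries the same donor record, so differences between the libraries measure the spread between these samples, which may be technical.

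MicroRNAs are cut from a hairpin as a 5p and a 3p arm, and the loaded arm finds target mRNAs mainly through its seed, bases 2 to 8. The miR-181 family is known from lymphocyte development, where miR-181a tunes the sensitivity of the T-cell receptor through its effect on phosphatases. It is also known from the nervous system, where miR-181a has been linked to synaptic receptor levels in neurons and the family to inflammatory responses of glia. Expression in cortex tissue mixes all of its cell types, and in such a bulk sample fewer cells of a type and less RNA per cell cannot be told apart.

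The 6 genes encode 4 distinct 5p arms and 6 distinct 3p arms. They are shown because the members differ in how far their arms can be told apart, and the counts below follow genes and not arms. Sequences are from RefSeq on GRCm38.p6, which held mature entries for all 6 members, with the seed in capitals. The 5p arms, written 5′ to 3′, all carry the seed ACAUUCA.
miR-181a-5p (Mir181a-1 and Mir181a-2): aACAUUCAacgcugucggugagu
miR-181b-5p (Mir181b-1 and Mir181b-2): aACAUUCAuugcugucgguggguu
miR-181c-5p (Mir181c): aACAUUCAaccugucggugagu
miR-181d-5p (Mir181d): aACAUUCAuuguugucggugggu

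Among the 1679 mature microRNA names of the RefSeq table, no other name carried that seed. Counting positions from 1 at the 5′ end of the arm, miR-181a-5p and miR-181b-5p differ by A9U, C10U and A21G and by 1 further base at the end of the longer arm. The arms miR-181b-5p and miR-181d-5p differ by C12U and by the last base of the 24 nt miR-181b-5p. The arm miR-181c-5p lies at an edit distance of 1 from miR-181a-5p, at 22 nt against 23 nt. The family thus splits into an a and c pair and a b and d pair of 5p arms, and each bicistron holds 1 gene of either kind.

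The 3p arms are less alike and carry 4 different seeds, again in capitals.
miR-181a-1-3p (Mir181a-1): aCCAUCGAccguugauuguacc
miR-181c-3p (Mir181c): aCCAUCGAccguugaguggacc
miR-181a-2-3p (Mir181a-2): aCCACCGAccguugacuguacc
miR-181b-1-3p (Mir181b-1): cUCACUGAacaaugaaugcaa
miR-181b-2-3p (Mir181b-2): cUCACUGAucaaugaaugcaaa
miR-181d-3p (Mir181d): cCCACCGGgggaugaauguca

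The seed CCAUCGA is shared by miR-181a-1-3p and miR-181c-3p, which differ by U16G and U19G. The seed UCACUGA is shared by miR-181b-1-3p and miR-181b-2-3p, which differ by A9U and in length, at 21 nt and 22 nt. The 3p arms of the miR-181a genes differ by U5C and U16C, and the first of these lies within the seed. Thus miR-181a-2-3p and miR-181d-3p each have a seed of their own.

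On mm10, Mir181a-1 (ENSMUSG00000065565.1, chr1:137966455-137966541) and Mir181b-1 (ENSMUSG00000065458.1, chr1:137966639-137966718) lie on the plus strand with 97 bases between their hairpins. On their own strand both are within an intron of the noncoding gene Gm4258 and overlap an exon of the lincRNA A430106G13Rik, and the lincRNA Gm26936 has an intron on the opposite strand. Mir181a-2 (ENSMUSG00000065423.1, chr2:38852735-38852810) and Mir181b-2 (ENSMUSG00000065578.1, chr2:38853830-38853918) also lie on the plus strand and are 1019 bases apart. Both are opposite to an intron of Nr6a1, which encodes an orphan nuclear receptor, and Mir181b-2 is opposite to an exon of Gm44144 as well. Nr6a1os, the nearest gene on their own strand, ends 365 bp from Mir181a-2. Mir181c (ENSMUSG00000065483.2, chr8:84178873-84178961) and Mir181d (ENSMUSG00000076338.1, chr8:84178716-84178787) lie on the minus strand in an intron of Nanos3, an RNA-binding protein gene of germ cells, with 85 bases between them. Hairpins measured 72 to 89 nt.

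The deposited tables set apart reads placed at several loci, so copies of an arm matter for the counts. The 5p arms of Mir181c and Mir181d were each found whole in 1 of the 2202 counted hairpins, and so were all 6 of the 3p arms. By contrast, miR-181a-5p and miR-181b-5p were each found in 2 hairpins. Outside hairpins, a match to a whole arm on either strand was found only in transcripts of A430106G13Rik and Gm44144, which overlap the hairpins themselves. Gm44144 lies on the strand opposite to Mir181b-2, so its transcript holds the reverse complement. The search covered 141767 annotated transcripts and not the rest of the genome.

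The stretch in common did not end at the same place in both copied arms. In the following windows of 30 nt, which start at the first base of the 5p arm, capitals mark the bases after the annotated arm.
Mir181a-1: aacauucaacgcugucggugaguUUGGAAU
Mir181a-2: aacauucaacgcugucggugaguUUGGGAU
Mir181b-1: aacauucauugcugucgguggguuGAACUG
Mir181b-2: aacauucauugcugucgguggguuUGAAUG

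The Mir181a hairpins stayed identical for 27 bases from the start of the arm, up to A28G, and 1 base before it, which gives a run of 28 nt. The Mir181b hairpins stayed identical for 24 bases, which is the length of the annotated arm, up to G25U, and 2 bases before it, a run of 26 nt. A read that starts at the first base of the 5p arm and follows the hairpin sequence therefore separates the Mir181b genes once it reaches the base after the arm. Such a read separates the Mir181a genes only from position 28. All other pairs of members share runs of 8 to 17 nt.

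**Figure D1:**
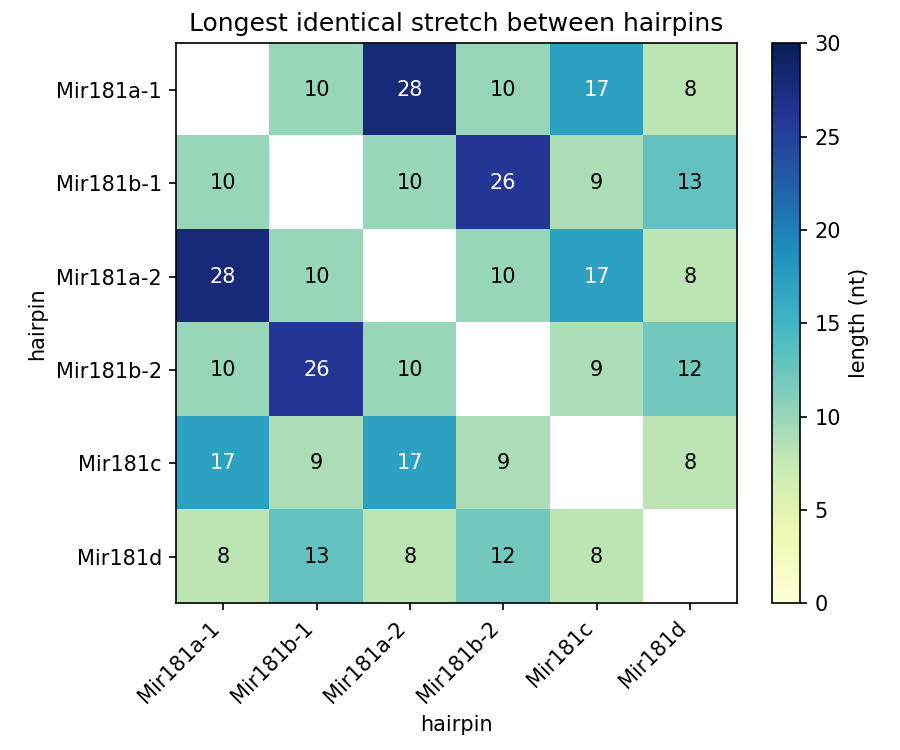
Each cell gives the longest identical stretch, in nt, between 2 of the 6 Mir181 hairpins, and the colour shows the same length from 0 to 30 nt. The Mir181a pair (28 nt) and the Mir181b pair (26 nt) stand out, while Mir181c shares 17 nt with either Mir181a hairpin and Mir181d at most 13 nt with a Mir181b hairpin.

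Own-strand counts over all microRNA genes summed to 3017058 in replicate 1 and 3209361 in replicate 2, and levels are given as CPM, counts scaled to these library sums. A gene with 0 counts could still lie at up to 0.994 CPM (replicate 1) or 0.935 CPM (replicate 2), the levels of 3 counts. Reads placed at several loci came to 3425133 (40.3% of all reads) and 3621909 (39.0%), and the share of them from miR-181 arms was not measured. The cortex label was checked on marker microRNAs. Of 8 neuron genes, 5 had at least 10 counts in both libraries and the list held 20.7% and 19.5% of counts, led by Mir139, Mir132 and Mir128-1, while the neuronal Mir124a genes had 0 to 9 counts. The liver microRNA Mir122 held 141 and 164 counts. Of 5 muscle genes, Mir206 held 82 and 110 counts, about as many as Mir181b-1, and the Mir1a and Mir133a genes were at 0 in both libraries. The hairpins of the Mir1a pair share a stretch of 28 nt and those of the Mir133a pair 31 nt. A count of 0 outside the several-loci class therefore does not show that these genes were absent. The Mir124a genes were not compared in this way, so their low counts do not show absence either.

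All 6 Mir181 genes reached 10 counts in each library, the minimum for calling a gene detected, and their levels ranged over more than 2 orders of magnitude. Over all microRNA genes the same rule detected 395 of 2202, or 17.9%. Mir181a-2, at 17 and 81 counts, and Mir181b-1, at 85 and 93, lay below the liver microRNA Mir122, at 141 and 164. The 6 genes together held 22946 counts in replicate 1, or 0.761% of microRNA gene counts (exact binomial 95% interval 0.751 to 0.770), and 25105 counts in replicate 2, or 0.782% (0.773 to 0.792). Their mean share was 0.771% ± 0.0153 (SD, n = 2). Intervals cover counting error only and treat each read as independent. PCR copies without molecular identifiers are not independent molecules, so the intervals can be too narrow. In both libraries all counts of the 6 genes were on the gene's own strand, with 0 on the opposite strand.

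The highest member was Mir181b-2, the second hairpin of the chromosome 2 bicistron. It had 10409 counts in replicate 1 and 9497 in replicate 2, which is 3450 and 2959 CPM, or 3205 ± 347 CPM (SD, n = 2). It ranked 51 among the 2202 genes by mean level. Its bicistron partner Mir181a-2 was the lowest member, with 17 counts in replicate 1 and 81 in replicate 2, or 5.63 and 25.2 CPM. Its mean level was 15.4 ± 13.9 CPM (SD, n = 2), and replicate 1 was the low library. One bicistron thus held both ends of the family's range of counts, from which reads placed at several loci are left out.

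Mir181d, which carries a 5p arm of the b and d kind, had 7730 counts in replicate 1 and 7625 in replicate 2. This is 2562 and 2376 CPM, or 2469 ± 132 CPM (SD, n = 2), at rank 60. Mir181c, its partner, had 3507 and 6195 counts, which is 1162 and 1930 CPM, or 1546 ± 543 CPM (SD, n = 2), at rank 87. Here replicate 2 was the high library, and the ranges of Mir181c and Mir181d over the libraries did not overlap. Both genes of this bicistron ranked between 56 and 89 in either library.

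The chromosome 1 bicistron was lower. Mir181a-1 had 1198 counts in replicate 1 and 1614 in replicate 2, which is 397 and 503 CPM, or 450.0 ± 74.8 CPM (SD, n = 2), at rank 137. Mir181b-1 had 85 and 93 counts, which is 28.2 and 29.0 CPM, or 28.6 ± 0.569 CPM (SD, n = 2), at rank 259. Mir181b-1 was nearly equal in both libraries, although it carries the same 5p arm as Mir181b-2, the highest member.

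The order of the mean levels in CPM was Mir181b-2, Mir181d, Mir181c, Mir181a-1, Mir181b-1 and Mir181a-2. Ranges over the 2 libraries did not overlap between any neighbours in this order, which 2 values per gene show only as a description. The steps were 1.30-fold from Mir181b-2 to Mir181d, 1.60-fold to Mir181c, 3.44-fold to Mir181a-1, 15.7-fold to Mir181b-1 and 1.85-fold to Mir181a-2. The last step was not resolved by counting in replicate 2, where the exact Poisson 95% intervals were 23.4 to 35.5 CPM for Mir181b-1 and 20.0 to 31.4 CPM for Mir181a-2. Dividing the levels by hairpin length left all 6 genes in the same place of the order.

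**Figure D2:**
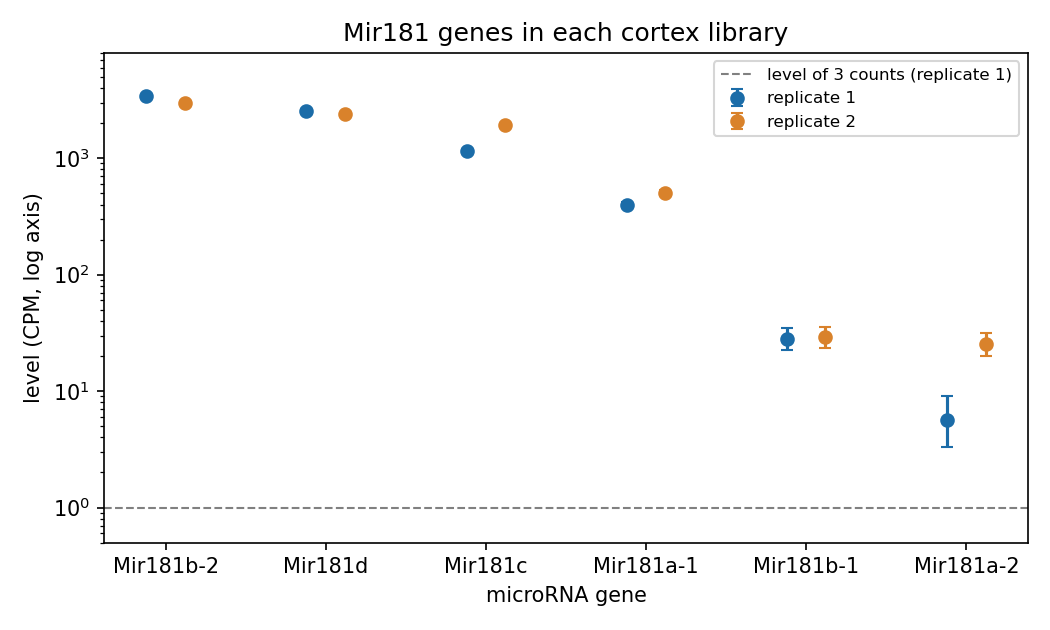
Levels of the 6 Mir181 genes in CPM on a log axis, ordered by mean, with 1 point per library, exact Poisson 95% intervals as bars and the level of 3 counts in replicate 1 as a dashed line. Mir181b-2, Mir181d and Mir181c lie between 1162 and 3450 CPM in both libraries, and Mir181b-1 and Mir181a-2 between 5.63 and 29.0 CPM. The gap between the libraries is widest on this axis for Mir181a-2, followed by Mir181c.

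Within the family, the chromosome 8 bicistron of Mir181c and Mir181d held the largest share of counts. It accounted for 49.0% of family counts in replicate 1 (exact binomial 95% interval 48.3 to 49.6) and 55.0% in replicate 2 (54.4 to 55.7). The Mir181a-2 and Mir181b-2 bicistron held 45.4% (44.8 to 46.1) and 38.2% (37.6 to 38.8), nearly all of it from Mir181b-2. The Mir181a-1 and Mir181b-1 bicistron held 5.59% (5.30 to 5.90) and 6.80% (6.49 to 7.12). Mir181b-2 and Mir181d, which both have a 5p arm of the b and d kind, were the highest members, while Mir181b-1 of the same kind was near the bottom. The counts leave out reads placed at several loci, and only the 5p arms of Mir181c and Mir181d were found in a single hairpin. Shares by bicistron, and by gene below, therefore describe the counted reads and may differ from the make-up of the family.

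By gene, Mir181b-2 supplied 41.6% ± 5.33 of family counts, Mir181d 32.0% ± 2.34 and Mir181c 19.98% ± 6.64 (SD, n = 2 for each). Mir181a-1 supplied 5.82% ± 0.854 and Mir181a-2 0.198% ± 0.176. Mir181b-1 supplied 0.370% in both libraries.

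**Figure D3:**
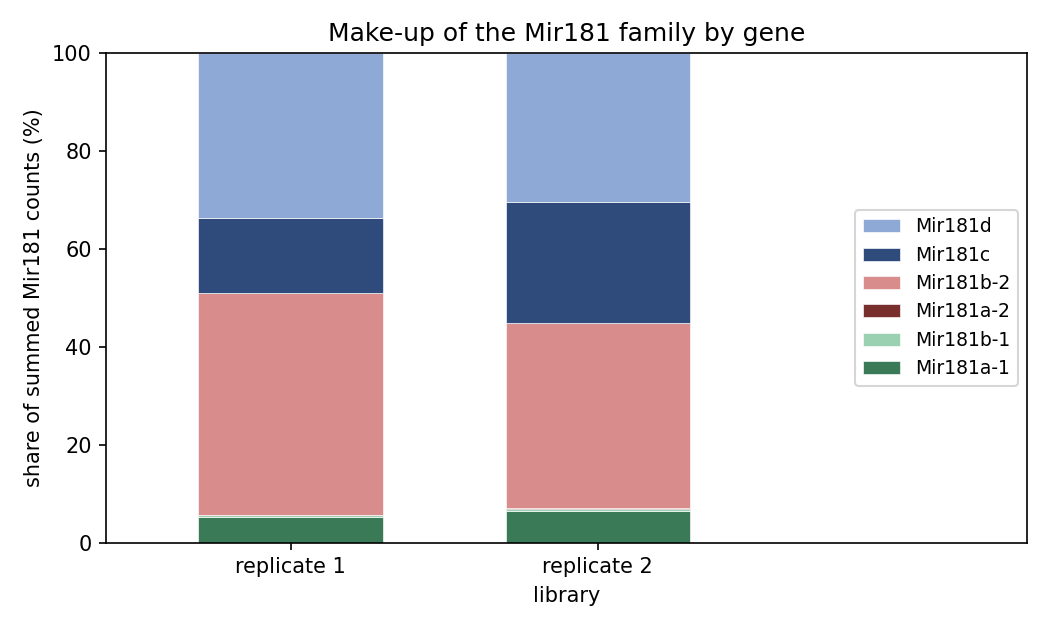
Stacked bars show the percentage of summed Mir181 counts that came from each gene in replicates 1 and 2, with the genes of a bicistron in shades of one colour. Mir181b-2 takes 45.4% in replicate 1 and 37.8% in replicate 2, Mir181c takes 15.3% and 24.7%, and Mir181b-1 and Mir181a-2 are too small to see.

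Ratios between genes of one library do not depend on how libraries are scaled. Mir181d exceeded Mir181c 2.20-fold in replicate 1 (exact 95% interval 2.12 to 2.29) and 1.23-fold in replicate 2 (1.19 to 1.27), so Mir181d was higher in both and the intervals did not overlap. Mir181a-1 exceeded its partner Mir181b-1 14.1-fold (11.3 to 17.8) and 17.4-fold (14.1 to 21.6), with overlapping intervals. The ratio of Mir181b-2 to Mir181a-2 was 612 in replicate 1 (382 to 1051) and 117 in replicate 2 (94.2 to 148). Which gene of a bicistron had more counts therefore differed between loci, and it was the same in both libraries. The a gene was ahead on chromosome 1 and the b gene on chromosome 2. On these chromosomes each gene shares an arm with a gene elsewhere, and reads placed at several loci are left out. How far a read must run to tell the copies apart also differs between the a and b genes. Which gene gave more RNA on these chromosomes was therefore not tested.

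Genes with an identical 5p arm also had unlike counts. Mir181b-2 exceeded Mir181b-1 by 122-fold in replicate 1 (exact 95% interval 98.9 to 153) and 102-fold in replicate 2 (83.3 to 127). Mir181a-1 exceeded Mir181a-2 by 70.5-fold (43.8 to 121) and 19.9-fold (15.9 to 25.2). Reads of the shared arms that fit both copies belong to the class of several loci. The part of such reads, of 3p arms and of reads that run past the arm in these ratios was not tested, because the tables do not divide counts by arm or by read length.

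For comparison, all pairs of counted genes at different loci with a whole mature arm in common were collected, a set chosen after the values of the members were seen. There were 51 such pairs with the arm in exactly 2 hairpins. In 22 of them both genes were detected and in 5 a single gene was. Over all 27 pairs, with a gene at 0 set to 3 counts per library, the median ratio of mean CPM was 3.88, and over the 22 it was 3.21. Requiring both genes to be detected drops pairs whose lower gene is nearly absent, so the order is given over the 27. The Mir181b pair, at 112, came after Mir219a-2 over Mir219a-1, an oligodendrocyte microRNA pair, at 895 on 7154 and 3 counts in replicate 1 and 10453 and 17 in replicate 2. Mir101a was at least 85.6-fold higher than Mir101c, which had 0 counts in both libraries. The arm shared by this pair is miR-101c, of only 19 nt, and the hairpins differ at the next base on either side. The Mir181a pair, at 29.2, was close to Mir194-2 over Mir194-1 at 29.7 (exact 95% interval of the summed counts 11.5 to 113) and to Mir92-1 over Mir92-2 at 28.2. The order of the Mir181a and Mir92 pairs turned between the libraries, with 70.5 and 32.5 in replicate 1 and 19.9 and 26.6 in replicate 2. The pairs below these ranged from 12.6 for Mirlet7f-2 over Mirlet7f-1 to 1.10 for Mir135a-1 over Mir135a-2. These ratios are a description without a test.

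**Figure D4:**
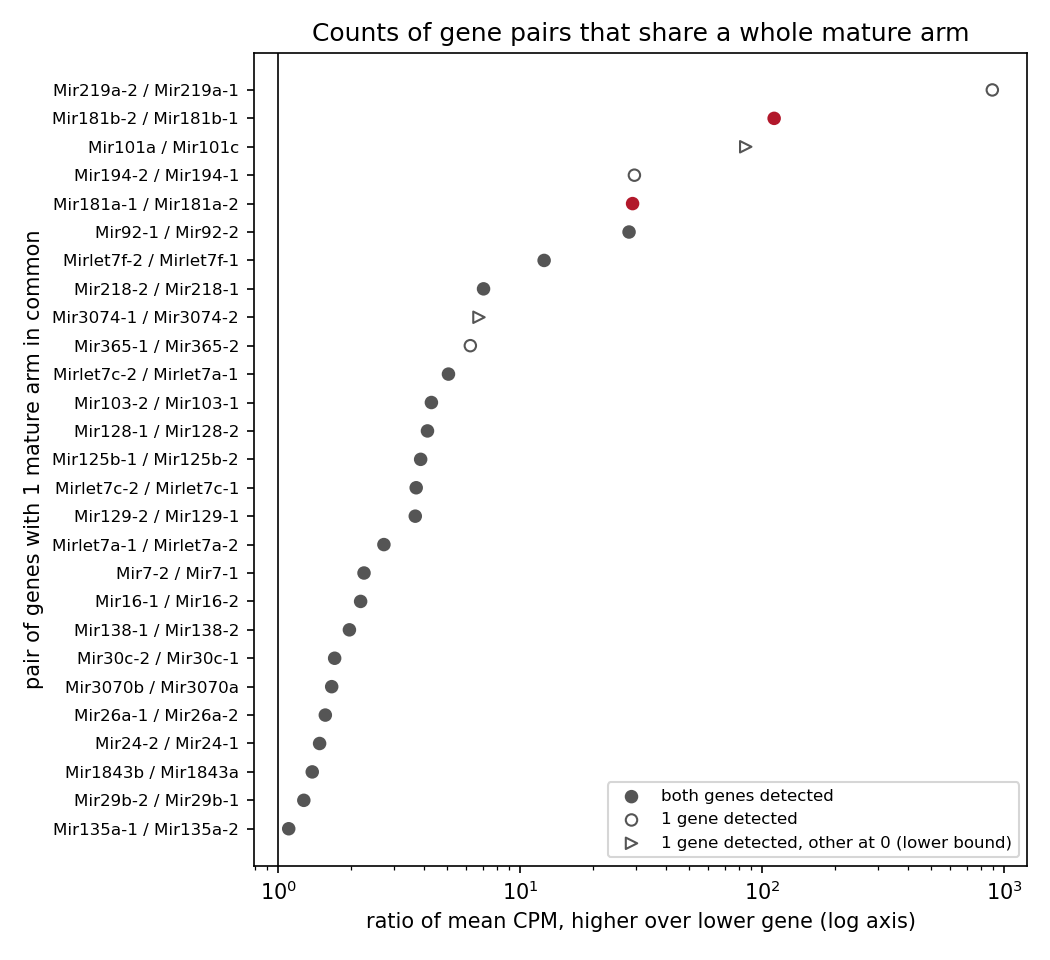
Each point is 1 of the 27 pairs of genes that share a whole mature arm and have at least 1 detected gene, placed by the ratio of the mean CPM of the higher over the lower gene on a log axis. Filled points have both genes detected, open points 1 gene, and triangles are lower bounds; the Mir181 pairs, in red, lie at 112 and 29.2, below the Mir219a pair at 895.

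The libraries were then compared gene by gene with an exact binomial test under TMM scaling, which compares libraries and not conditions. Of 496 tested genes, 280 (56.5%) were called at an adjusted p below 0.05, so a call is common here. Under TMM scaling 152 of these were higher in replicate 1 and 128 in replicate 2, whereas library totals gave 102 and 180 of 282. Of the 6 Mir181 genes, 4 were called. Mir181b-2 and Mir181d were higher in replicate 1, where the background of all genes was 30.6%, and Mir181c and Mir181a-2 were higher in replicate 2, where it was 25.8%. The median log2 ratio of replicate 2 over replicate 1 was -0.038 over the 6 genes and 0.0058 over the 496 tested genes.

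Mir181a-2 differed most, at a log2 ratio of 1.93 (95% counting interval 1.17 to 2.78, adjusted p = 5.4e-08, exact binomial test), on 17 and 81 counts. Mir181c followed at 0.50 (0.44 to 0.56, adjusted p = 6.0e-62). Mir181b-2 stood at -0.45 (-0.49 to -0.41, adjusted p = 3.1e-106) and Mir181d at -0.34 (-0.38 to -0.29, adjusted p = 9.5e-47). On chromosomes 2 and 8 the genes of one bicistron thus had log2 ratios of opposite sign, and both genes were called. The signs also differed on chromosome 1 under TMM scaling, where neither gene was called. Mir181b-1 was at -0.19 (-0.63 to 0.25, adjusted p = 0.51), an interval that leaves room for a change in either direction.

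Mir181a-1 stood at 0.11 (0.0035 to 0.22, adjusted p = 0.071), just above the threshold. It passed with DESeq2 size factors (adjusted p = 0.049, exact binomial test), with library totals (1.8e-09) and without the filter on low counts (0.039). It also passed in the either-strand column (0.0072), where its counts were the same as on its own strand. After thinning to equal depth it did not pass (0.067). TMM scaling moved all log2 ratios by -0.23 relative to library totals. With library totals Mir181b-1 changed sign, to 0.041, and the other 5 members kept theirs.

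The members' differences were then set beside the spread over all tested genes. The median size of the log2 ratio was 0.39 over the 6 members and 0.52 over the tested genes, without 3 that had 0 counts in one library. Mir181a-2 was the sole member above the latter under TMM scaling. Among the 231 genes whose average level reached 50 CPM, the median size was smaller, at 0.42. Of the members at such levels, Mir181c (0.50) and Mir181b-2 (-0.45) exceeded this value in size. Mir181d (-0.34) and Mir181a-1 (0.11) did not. The biological coefficient of variation over the tested genes was 36.7%. Some markers of blood and immune cells, which a cortex sample can hold, were also called between the libraries. Of 6 immune genes, which include the lymphocyte microRNA Mir150 and the myeloid microRNA Mir223, 5 were called. All 5 were higher in replicate 1 under TMM scaling, although Mir146 stood at 714 and 717 CPM by library totals, a difference in the other direction. Over all tested genes 56.5% were called, 30.6% as higher in replicate 1. Of the 8 neuron genes 5 were called, 2 higher in replicate 1 and 3 in replicate 2. The immune list had a summed share of 0.285% in replicate 1 and 0.241% in replicate 2. The 3 red blood cell genes held 0.00510% and 0.00754%, with Mir451a called higher in replicate 2. The part of these cells in the Mir181 differences was not tested.

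**Figure D5:**
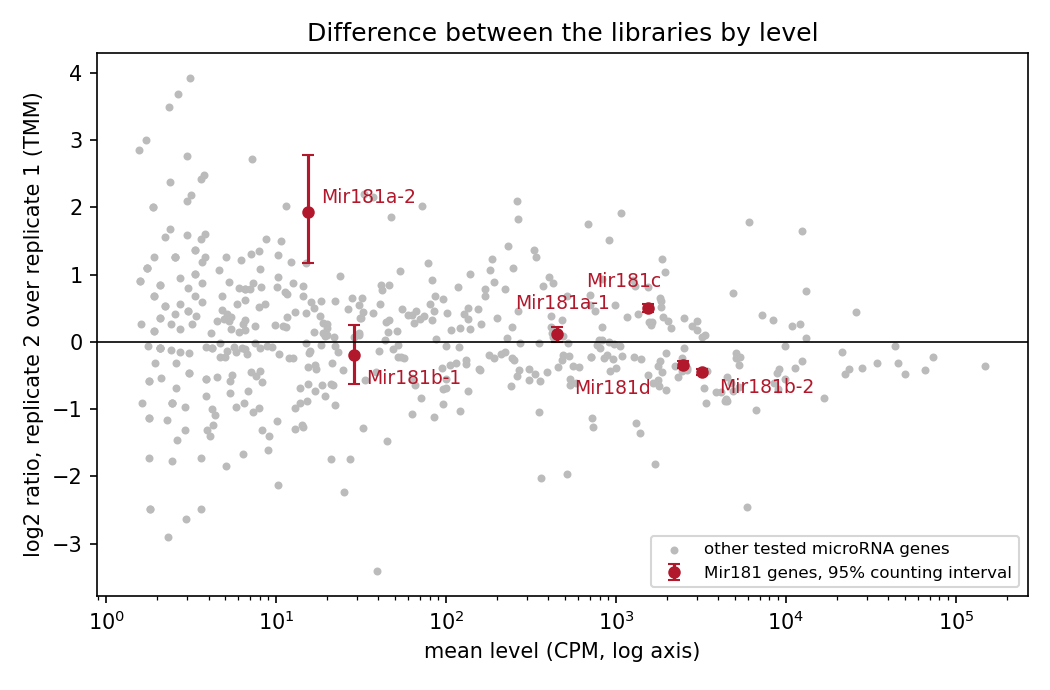
Log2 ratio of replicate 2 over replicate 1 after TMM scaling against the mean level in CPM on a log axis, for the tested genes with counts in both libraries in grey and the 6 Mir181 genes in red with 95% counting intervals. Mir181a-2 lies at 1.93, Mir181c at 0.50, and Mir181b-2 at -0.45 and Mir181d at -0.34 lie below 0 within the grey cloud.

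The genes nearest to Mir181b-2 in level over the 2 libraries, by Euclidean distance of log2(CPM + 1), were Mir98, Mir107 and Mir335. Mir98, a let-7 family gene, had 3691 and 3193 CPM in replicates 1 and 2, at a distance of 0.15. Mir107 had 3818 and 2784 CPM (distance 0.17) and Mir335 had 4179 and 2608 CPM (distance 0.33). With only 2 libraries this measure reflects level more than pattern.

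Other families of brain microRNAs with copies at several loci gave a scale for the summed level. The Mir29 family of 4 genes, known from the maturing brain, held 0.592% ± 0.0246 of counts, and the Mir30 family of 6 genes held 1.46% ± 0.304. The Mir23, Mir27 and Mir24 twin clusters of 6 genes held 3.28% ± 0.326 (SD, n = 2 for each). The Mir181 family, at 0.771% ± 0.0153, lay between the Mir29 and Mir30 families, and the ranges of these 4 sums over the libraries did not overlap. All members of these families were detected, as were all 6 Mir181 genes. Each of these families also holds genes with a whole arm in common (Mir29b, Mir24 and Mir30c), so reads placed at several loci can lower their sums as well as that of the Mir181 family. The median gene stood at 998 CPM in the Mir181 family, 281 CPM in the Mir29 family, 838 CPM in the twin clusters and 1809 CPM in the Mir30 family. These differences were not tested, since members are not replicates and 2 libraries form a single group.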

How the data were processed

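The deposited count tables give, per library, reads per microRNA gene without normalization, on mm10 with annotation M21 per the file headers of the deposit's text listing. The aligner is not given in the sources used here, nor is the counter. Columns have no header, and their roles (either strand, own strand, opposite strand) were read from the values. All 2202 identifiers matched GENCODE M21. The 4 read classes outside genes (unmapped, several loci, no feature, ambiguous) were left out of library sizes.

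CPM used own-strand sums. Libraries were compared across all genes with at least 10 counts in total by a two-sided exact binomial test given TMM-scaled sizes (edgeR 4.0.16, factors from the filtered genes), with Benjamini-Hochberg adjustment. The biological coefficient of variation is from edgeR's common dispersion. On simulated Poisson counts of 498 genes, scaled by library totals, the same test called 68% of 50 genes changed 2-fold and 1.63% of 306 unchanged genes. The simulation had no spread between libraries beyond counting, so it gives no rate of false calls for these data. Named genes were all 6 members, the 3 nearest to the highest member, and up to 3 of each list. The members and lists were chosen with earlier results of these data known. Alternatives were the either-strand column, DESeq2 1.42.0 size factors, library totals, no low-count filter, thinning, other denominators and count minimums, shared stretches of 18 and 20 nt, leaving out each replicate and, chosen after seeing the data, levels per hairpin length. Python 3.11.15 and scipy 1.17.1 were used.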

Additional observations from a re-analysis of the deposited data

How the results depend on the processing

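The share of counts held by the Mir181 family moved from 0.771% to 0.826% in the either-strand column and to 0.270% with all reads as the denominator. It ranged from 0.761% to 0.782% when a replicate was left out. With a minimum of 100 counts, 4 of the 6 genes were detected. The 6 genes each kept an arm found at a single hairpin when stretches of 18 or 20 nt were compared. The number of members called between the libraries was 4 and rose to 5 in the either-strand column, with DESeq2 size factors, with library totals and without the low-count filter, through Mir181a-1 each time. The log2 ratio of Mir181b-1 turned to 0.041 with library totals. Under library totals 102 of 282 called genes were higher in replicate 1, against 152 of 280 under TMM. The genes Mir181a-2 and Mir181b-1 rest on 17 to 93 counts per library, which limits their precision. No paired analysis was possible because the study has a single group.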
